A study of Mus musculus with 8 samples.

Results

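The chimera of MyoD and NeuroD2, delivered at a multiplicity of infection (MOI, virus particles per cell) of 100, was compared with NeuroD2 itself in P19 cells, a mouse line from an embryonal carcinoma with the capacity to form neurons or muscle. One side is the library from cells transduced with MD(ND2bHLH), which is MyoD carrying the basic helix-loop-helix (bHLH) domain of NeuroD2 in place of its own. The other is the library from cells transduced with NeuroD2. The comparison takes 2 of the 8 libraries and all 37558 genes of the deposited count table, of which 15547 reached 1 CPM (counts per megaread of scaled library size) in at least 1 of the 8. Both cultures were infected with lentivirus in the presence of polybrene, kept in growth medium, and then moved to Neurobasal medium with B27 until harvest. The other 6 libraries, used here for context, carried GFP, MyoD, the chimera with no MOI in its label, the mutants of the chimera labelled WC and WCS, and WCS at MOI 100. The label of the NeuroD2 library gives no MOI, so construct and virus dose cannot be told apart in this comparison.

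Transcription factors of the bHLH class bind E-box motifs in DNA as dimers with E-proteins. MyoD drives skeletal muscle formation and NeuroD2 drives neuronal differentiation, and the preferred E-box letters of the 2 factors differ in part. Downstream of MyoD, myogenin and Mef2 factors turn on the sarcomere. Downstream of proneural factors, a cascade of further bHLH and zinc-finger genes comes before the neuronal cytoskeleton and synapse.

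Total counts were 28113664 for the chimera at MOI 100 and 27604056 for NeuroD2, within the range of 26410500 to 43984066 of the 8 libraries. Each group had 1 library, so no value has a replicate check and no test between groups was made. Intervals given with ratios are 95% exact intervals on the 2 counts and cover counting error only. The RNA is from whole cultures, so more cells of a type and more RNA per cell cannot be told apart. Rn7s6, a 7S RNA gene, set the libraries apart in 2 groups. The libraries of WCS, WC, GFP and MyoD had between 12.998 and 16.3 CPM. Those of NeuroD2, WCS at MOI 100 and the 2 chimeras had between 0.565 and 1.28 CPM. The 2 libraries compared here, at 1.21 and 0.594 CPM, are on the same side, as are MyoD, WC and GFP. Levels set side by side across the 2 groups carry this difference, whose part in them was not tested.

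The 2 delivered factors matched the labels. Myod1 had 555 CPM in the chimera at MOI 100, against 0.804 in NeuroD2. Neurod2, of which the chimera carries only the bHLH segment, had 73.3 CPM in the chimera, against 180 in NeuroD2. Whether a read came from the delivered or the endogenous gene cannot be told from these counts. The 3 marker genes fixed for the comparison put neuronal transcripts in both libraries and muscle transcripts in the chimera. Neurod1, a neurogenic bHLH gene, stood at 150 and 111 CPM in the chimera and NeuroD2, Dcx, the microtubule protein doublecortin of young neurons, at 195 and 397 CPM, and Myog, the muscle bHLH gene myogenin, at 197 and 0.175 CPM.

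Skeletal muscle genes were higher in the chimera at MOI 100, and the median of each neuronal list was slightly lower. A gene was called when its log2(CPM + 0.5) values differed by 4-fold or more and its higher library reached 5 CPM. By that rule 182 genes (1.17% of the 15547 measured) were higher in the chimera and 85 (0.547%) were lower. Among the 12029 genes at 5 CPM or more in either library, 83.9% lay within 1.5-fold and 92.0% within 2-fold. The median log2 ratio over all measured genes was -0.02. Of the 182 higher genes 50 belonged to the 2 muscle lists and 2 to the 4 lists of neuronal and neural progenitor genes. Of the 85 lower genes 12 belonged to those 4 lists and none to the muscle lists. Most called genes, 126 of the 182 and 68 of the 85, were in none of the 15 lists. Of the 15547 measured genes, the muscle lists held 78 and 43, and the 4 neural lists 71, 68, 71 and 48.

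**Figure D1:**
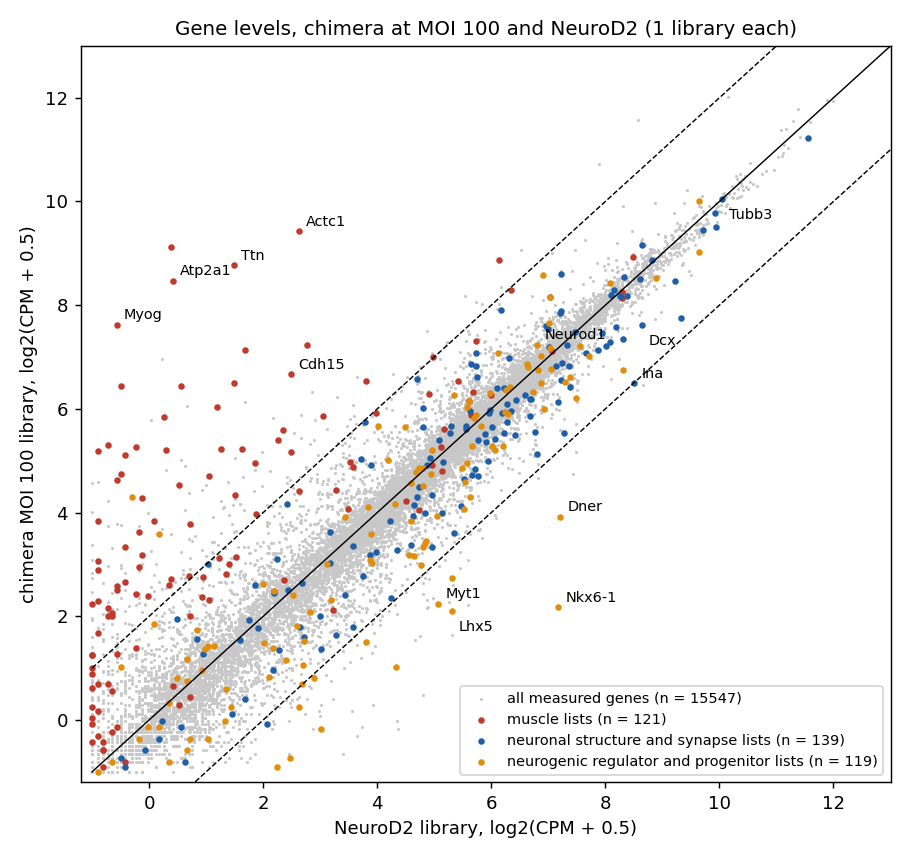
Level of each of 15547 measured genes in the NeuroD2 library (x axis) and the chimera MOI 100 library (y axis), both as log2(CPM + 0.5), 1 point per gene, with the line of equal levels and dashed lines 4-fold apart. Muscle genes (red) reach above the upper dashed line, neuronal structure and synapse genes (blue) spread around the line of equal levels, and a few regulators such as Nkx6-1 and Dner (orange) lie below the lower dashed line.

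Skeletal muscle genes made up the clearest group. Of 78 measured skeletal muscle structure genes 37 (47.4%) were called higher in the chimera and 0 lower, against 1.17% and 0.547% of all genes. Their median log2 ratio was 2.30, and 71 of the 78 lay above 0. The summed level of the list was 4328 CPM in the chimera at MOI 100, 1033 in NeuroD2 and 1825 in GFP, against 22654 in MyoD.

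Among regulators, 13 of 43 measured myogenic and fusion genes (30.2%) were called higher and 0 lower, with a median log2 ratio of 1.60. Myog stood at 0.0486 CPM in GFP, 95.1 in MyoD, 58.2 in the chimera with no MOI label, 197 in the chimera at MOI 100, 0.0642 in WC, 0 in WCS, 0.157 in WCS at MOI 100 and 0.175 in NeuroD2. It was thus high in the MyoD and 2 chimera libraries and near 0 in the other 5. Its ratio of chimera MOI 100 over NeuroD2 was 1127 (483 to 3473), from 5674 counts against 5. Eya2, a transcriptional cofactor, had 128 CPM in the chimera, against 30.9 in NeuroD2, but only 3.07 in MyoD. Mef2c, a muscle transcription factor, stood at 41.5 against 4.30 CPM (9.65-fold, 8.01 to 11.7), and Vgll2, a muscle cofactor of Tead factors, at 7.91 against 0.0349 CPM. Tead4 itself was 7.41-fold higher, at 57.7 against 7.79 CPM, but stood at 77.5 CPM in GFP, above both.

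Genes of myoblast fusion and of the neuromuscular synapse were in the same group. Mymk, which encodes a membrane protein needed for myoblast fusion, had 57.0 CPM in the chimera, against 0.699 in NeuroD2, a ratio of 81.6 (52.7 to 134). Cdh15, muscle cadherin, stood at 101 against 5.14 CPM (19.7-fold, 16.7 to 23.4). Musk, the kinase that organises the neuromuscular synapse, was level with MyoD in the chimera, at 86.4 and 86.0 CPM, and stood at 0.210 CPM in NeuroD2. Of the muscle acetylcholine receptor subunits, Chrng, the embryonic subunit, was 24.1-fold higher at 22.8 CPM. Chrna1 stood at 4.86 against 0.349 CPM, 13.9-fold apart (7.34 to 29.6) but just under the 5 CPM that a call requires.

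Genes of the sarcomere and of calcium handling were among the 37 called members of the structure list. Atp2a1, the calcium pump of fast muscle, stood at 355 CPM in the chimera against 0.838 in NeuroD2, a ratio of 424 (285 to 662). Ttn, the giant sarcomere protein titin, stood at 438 against 2.31 CPM (190-fold, 149 to 246). Both came near to the MyoD library, where they stood at 480 and 598 CPM. Other sarcomere genes did not. Actc1, a sarcomeric actin, stood at 690 CPM in the chimera at MOI 100 and 5.69 in NeuroD2, 121-fold apart (104 to 142), but at 5163 CPM in MyoD. Myh3, a myosin heavy chain of embryonic muscle, stood at 150 against 6.29 CPM, and at 3060 CPM in MyoD. Myh3 differed little between the 2 chimera libraries, at 132 CPM without the MOI label, whereas Atp2a1 stood at 111 CPM there. Myl1, a fast myosin light chain, had 1042 counts against 1 (ratio 1035, 185 to 40924), Trim55, a sarcomere-associated ubiquitin ligase, 1122 against 3 (372, 127 to 1804), and Sgca, alpha-sarcoglycan, 398 against 1. These ratios rest on 1 to 3 counts in NeuroD2, and their intervals are wide. Reads of near-identical actins and myosins can be shared between genes, so single members of those families are less certain than the list.

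Some members of the muscle lists were not called. Tpm3, a tropomyosin also made in non-muscle cells, stood at 281 and 311 CPM, and Dmd, dystrophin, at 29.6 and 30.5 CPM. Myh7b, a slow myosin, stood at 3.85 against 8.87 CPM, 2.30-fold lower in the chimera (1.84 to 2.91), and was the list's lowest member on log2(CPM + 0.5). Sgcd, delta-sarcoglycan, had 2 counts against 7, a fold whose interval includes no difference. In the cardiac and smooth muscle list 1 of 20 measured genes was called higher, Des, the intermediate filament desmin. Des stood at 35.5 against 5.14 CPM, with 22.6 CPM in GFP. The median log2 ratio of the cardiac and smooth muscle list was 0.61, with 17 of the 20 above 0. Des is also a skeletal muscle gene and stands in both lists. Acta2, smooth muscle actin, stood at 57.3 against 14.5 CPM (3.96-fold), but at 102 CPM in GFP. Myh6, a cardiac myosin, stood at 4.23 against 0.454 CPM (9.32-fold, under the 5 CPM that a call requires). The heart genes Hand1 and Pln had 0 counts in both libraries.

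**Figure D2:**
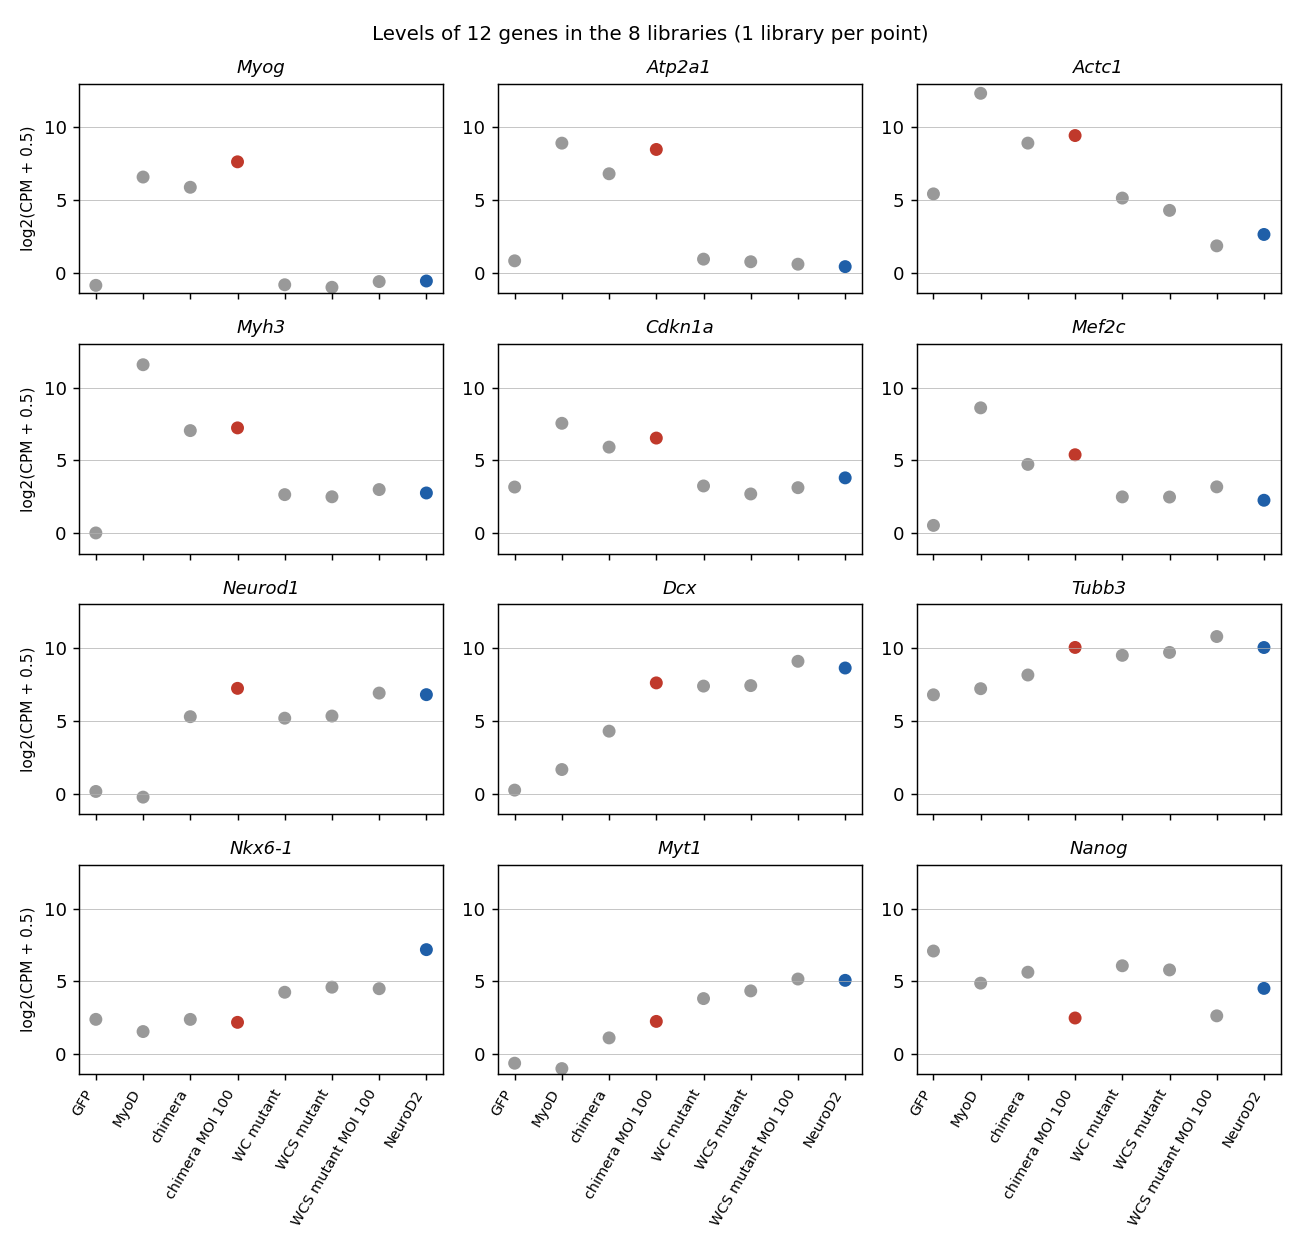
Levels of 12 genes in the 8 libraries as log2(CPM + 0.5), 1 library per point, with the chimera at MOI 100 in red, NeuroD2 in blue and the other libraries in grey. Myog and Atp2a1 are high in MyoD and both chimera libraries, Neurod1 and Tubb3 are alike in the red and blue libraries, and Nkx6-1 is highest in NeuroD2.

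Libraries outside the pair were used to describe the 182 higher genes without reusing the 2 libraries that chose them. In MyoD over GFP, where 2.75% of measured genes were called higher, 94 of the 182 (51.6%, exact interval 44.1% to 59.1%) were called higher, which is 22.0% of the 428 genes called there. In WC over GFP, where 2.57% were called higher, 16 of the 182 (8.79%, 5.11% to 13.9%) were. The median level of the 182 genes was 24.6 CPM in MyoD, 0.912 in GFP, 1.72 in WC and 2.04 in WCS at MOI 100. These 2 pairs share no library with the comparison of chimera and NeuroD2.

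Promoter sequence was then read for the leading genes in each direction, because bHLH domains contact E-box letters. Both factors compared here carry the bHLH domain of NeuroD2. RefSeq windows (GRCm38.p6, 250 bases before to 50 after the gene start) were matched by symbol for 138 of the 182 higher and 64 of the 85 lower genes, and for 10960 measured genes. The counts were mapped to mm9, so no coordinate of the count table is used. E-box hexamers of 3 kinds were searched on both strands. The first is CAGATG, which reads as CATCTG on the other strand. The next is CAGCTG, which reads the same on both strands. The last is CAGGTG, which reads as CACCTG on the other strand. No hexamer is another's reverse complement, and each was counted on its own. The first 3 leading genes in each direction that hold one are shown for the 250 bases before the start, with the matches in capitals. The first 3 are higher in the chimera and the last 3 are lower.
Atp2a1, higher, minus strand, chr7:126463074-126463323: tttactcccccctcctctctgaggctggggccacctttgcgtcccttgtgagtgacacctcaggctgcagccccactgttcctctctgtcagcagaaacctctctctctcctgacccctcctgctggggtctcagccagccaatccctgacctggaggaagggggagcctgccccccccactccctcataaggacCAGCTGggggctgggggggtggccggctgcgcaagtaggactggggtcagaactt
Musk, higher, plus strand, chr4:58285712-58285961: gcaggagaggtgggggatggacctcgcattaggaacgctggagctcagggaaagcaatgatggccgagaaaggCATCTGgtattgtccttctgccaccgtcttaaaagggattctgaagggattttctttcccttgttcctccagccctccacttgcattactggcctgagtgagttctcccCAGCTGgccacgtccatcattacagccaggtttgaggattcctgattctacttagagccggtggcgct
Myl1, higher, minus strand, chr1:66945057-66945306: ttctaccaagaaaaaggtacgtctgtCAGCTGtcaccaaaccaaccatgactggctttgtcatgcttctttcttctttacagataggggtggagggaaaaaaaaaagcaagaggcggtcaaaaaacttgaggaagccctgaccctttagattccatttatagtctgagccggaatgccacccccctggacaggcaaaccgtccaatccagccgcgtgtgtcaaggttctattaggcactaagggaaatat
Acan, lower, plus strand, chr7:79052976-79053225: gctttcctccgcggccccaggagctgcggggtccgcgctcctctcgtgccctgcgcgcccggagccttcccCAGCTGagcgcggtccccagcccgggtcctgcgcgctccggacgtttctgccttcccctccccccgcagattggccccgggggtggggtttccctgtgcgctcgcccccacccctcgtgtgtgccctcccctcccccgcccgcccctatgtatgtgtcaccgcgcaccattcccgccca
Galnt15, lower, plus strand, chr14:32028853-32029102: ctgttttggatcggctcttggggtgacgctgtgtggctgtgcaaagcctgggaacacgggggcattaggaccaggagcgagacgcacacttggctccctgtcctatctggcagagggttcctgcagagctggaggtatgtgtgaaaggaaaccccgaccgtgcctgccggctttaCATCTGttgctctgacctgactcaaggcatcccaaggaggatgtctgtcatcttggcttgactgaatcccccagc
Tlx1, lower, plus strand, chr19:45150465-45150714: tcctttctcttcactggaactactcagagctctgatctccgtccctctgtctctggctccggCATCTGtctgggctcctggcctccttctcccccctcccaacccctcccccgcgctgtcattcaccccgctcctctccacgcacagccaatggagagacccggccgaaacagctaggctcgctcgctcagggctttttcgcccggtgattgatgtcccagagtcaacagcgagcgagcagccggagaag

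Atp2a1 and Musk each hold CAGCTG within 70 bases of the start, with the first base of the match 55 and 68 bases before it. Musk holds a second match, to CAGATG, 177 bases before the start. Galnt15 and Tlx1 hold CAGATG on the other strand. Myog and Nkx6-1, which lead the 2 directions when genes are ranked by the cautious end of their interval, hold none of the 3 in these 250 bases, which says only that the letters are not in this window. Over the whole 300-base windows CAGCTG was found in 30.4% of the higher genes (22.9% to 38.8%), 26.6% of the lower genes (16.3% to 39.1%) and 15.3% of all measured genes. CAGATG was found in 18.8%, 17.2% and 11.4%, and CAGGTG in 21.7%, 23.4% and 17.7%. The shares in the higher and lower genes thus lay within each other's counting intervals for each of the 3 hexamers.

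Neuronal structure genes were seldom 4-fold apart but lay within 2-fold less often than genes in general. Of 71 measured genes of the neuronal cytoskeleton and adhesion 0 were called higher and 1 lower, with a median log2 ratio of -0.37, and 50 of the 71 (70.4%) lay within 2-fold, against 90.8% of all measured genes. Of 68 genes of the synapse, vesicles and transmitters 0 were called in either direction, with a median of -0.29 and 51 of the 68 within 2-fold. The summed level of the first list was 12704 CPM in the chimera and 15067 in NeuroD2, against 4377 in GFP and 3293 in MyoD.

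Several pan-neuronal genes could hardly be told apart. Tubb3, neuronal beta-tubulin, stood at 110 CPM in GFP, 148 in MyoD, 284 in the chimera with no MOI label, 1058 in the chimera at MOI 100, 726 in WC, 834 in WCS, 1780 in WCS at MOI 100 and 1054 in NeuroD2. The chimera at MOI 100 and NeuroD2 were level, a ratio of 1.003 (0.987 to 1.02), with WCS at MOI 100 above both. Stmn2, a growth-cone microtubule protein, stood at 362 against 390 CPM. Elavl3, a neuronal RNA-binding protein, stood at 374 against 320 CPM and Snap25, a synaptic SNARE protein, at 83.6 against 67.8 CPM.

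Neurofilament and some axonal genes were lower in the chimera. Ina, the intermediate filament alpha-internexin, was the only called member of either list, at 89.4 against 362 CPM (4.05-fold lower, 3.88 to 4.23). Nefl, the light neurofilament chain, stood at 34.4 against 112 CPM, which was also below the 74.3 CPM of GFP. Dcx was 2.04-fold lower in the chimera (1.972 to 2.103). Mapt, the axonal protein tau, stood at 11.7 against 40.1 CPM, and Map2, its dendritic relative, was lower as well, at 216.5 against 639 CPM. Slc17a6, the glutamate transporter of vesicles, stood at 31.2 against 60.6 CPM and Kcnd3, a potassium channel, at 46.1 against 155 CPM.

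Other neuronal genes were higher in the chimera, without reaching 4-fold. Robo2, an axon guidance receptor, stood at 240 against 71.4 CPM (3.36-fold, 3.20 to 3.53). Dscaml1, an adhesion molecule, stood at 53.0 against 13.3 CPM and Rgs4, a regulator of G-protein signalling, at 387 against 148 CPM. Scg2, a granin of dense-core vesicles, stood at 94.6 against 25.5 CPM, while Chgb, another granin, was lower at 190 against 290 CPM. Members of 1 family therefore went both ways.

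**Figure D3:**
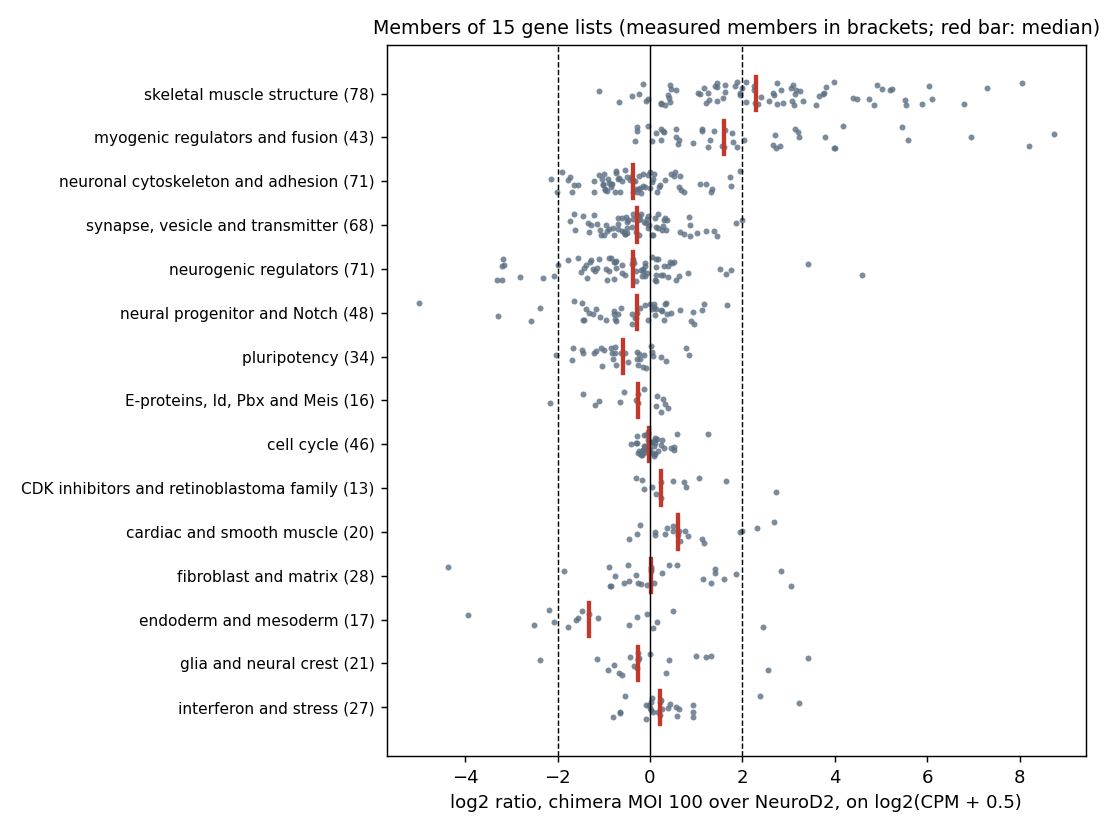
Log2 ratio of chimera MOI 100 over NeuroD2 (x axis, on log2(CPM + 0.5)) for the measured members of 15 gene lists, 1 point per gene with random vertical spread, red bars at the medians and dashed lines at 4-fold. The 2 muscle lists lie to the right with medians of 2.30 and 1.60, the neuronal lists lie just left of 0, and the cell cycle list is narrow around 0.

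Neurogenic regulators differed by gene, with more of them lower than higher in the chimera. Of 71 measured neurogenic regulators 2 were called higher and 7 lower (9.86%, against 0.547% of all genes), with a median log2 ratio of -0.38, and 45 of the 71 (63.4%) lay within 2-fold. Neurod1 stood at 0.608 CPM in GFP, 0.346 in MyoD, 38.6 in the chimera with no MOI label, 150 in the chimera at MOI 100, 35.9 in WC, 39.8 in WCS, 120 in WCS at MOI 100 and 111 in NeuroD2. The 2 libraries with an MOI of 100 and NeuroD2 were the 3 highest. The ratio of chimera MOI 100 over NeuroD2 was 1.35 (1.29 to 1.42). Nhlh1 and Nhlh2, bHLH genes of newborn neurons, stood at 112 against 99.1 CPM and at 27.04 against 25.1 CPM. Insm1, a zinc-finger factor of neuronal progenitors, stood at 107 against 113 CPM. Neurod4, another neurogenic bHLH gene, was 2.19-fold lower in the chimera, at 14.9 against 32.6 CPM.

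The 7 regulators called lower were Pax2, Lhx5, Onecut1, Onecut3, Atoh7, Myt1 and Eomes. Myt1, a zinc-finger factor of neuronal differentiation, stood at 0.146 CPM in GFP, 0 in MyoD, 1.66 in the chimera with no MOI label, 4.23 in the chimera at MOI 100, 13.5 in WC, 19.8 in WCS, 35.2 in WCS at MOI 100 and 33.0 in NeuroD2. Both chimera libraries thus lay below the mutants and NeuroD2. Its ratio was 7.79-fold lower in the chimera (6.44 to 9.48). Lhx5, a LIM homeodomain factor of spinal interneurons, stood at 3.78 against 39.0 CPM (10.3-fold lower, 8.47 to 12.7), and at 31.9 CPM in WCS at MOI 100. Pax2, another factor of spinal interneurons, stood at 1.53 against 19.5 CPM, and it was low in WCS at MOI 100 too, at 2.88 CPM. Onecut3 had 3 counts against 145 (48.7-fold lower, 16.3 to 239). Atoh7, a proneural bHLH gene of the retina, stood at 0.382 against 7.55 CPM. Scrt1, a neuronal repressor, was not called at 10.1 against 28.3 CPM. Lhx9, a LIM factor, was level at 7.57 and 8.18 CPM (1.08-fold lower, ratio interval 0.766 to 1.12), although it reached 100.2 CPM in WCS at MOI 100.

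The 2 regulators called higher were homeobox genes. Barx1, of branchial and gut mesenchyme, stood at 19.2 against 0.314 CPM (60.9-fold, 31.9 to 134) and at 0.845 CPM or less in GFP and MyoD. Barhl1, of brain and spinal neurons, stood at 11.6 against 0.629 CPM (18.4-fold, 11.48 to 31.5). Barhl1 was higher still in the WC, WCS and WCS MOI 100 libraries, at 19.5, 18.04 and 34.1 CPM, so NeuroD2 was the one library among those carrying the NeuroD2 bHLH domain where it stayed under 1 CPM.

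**Figure D4:**
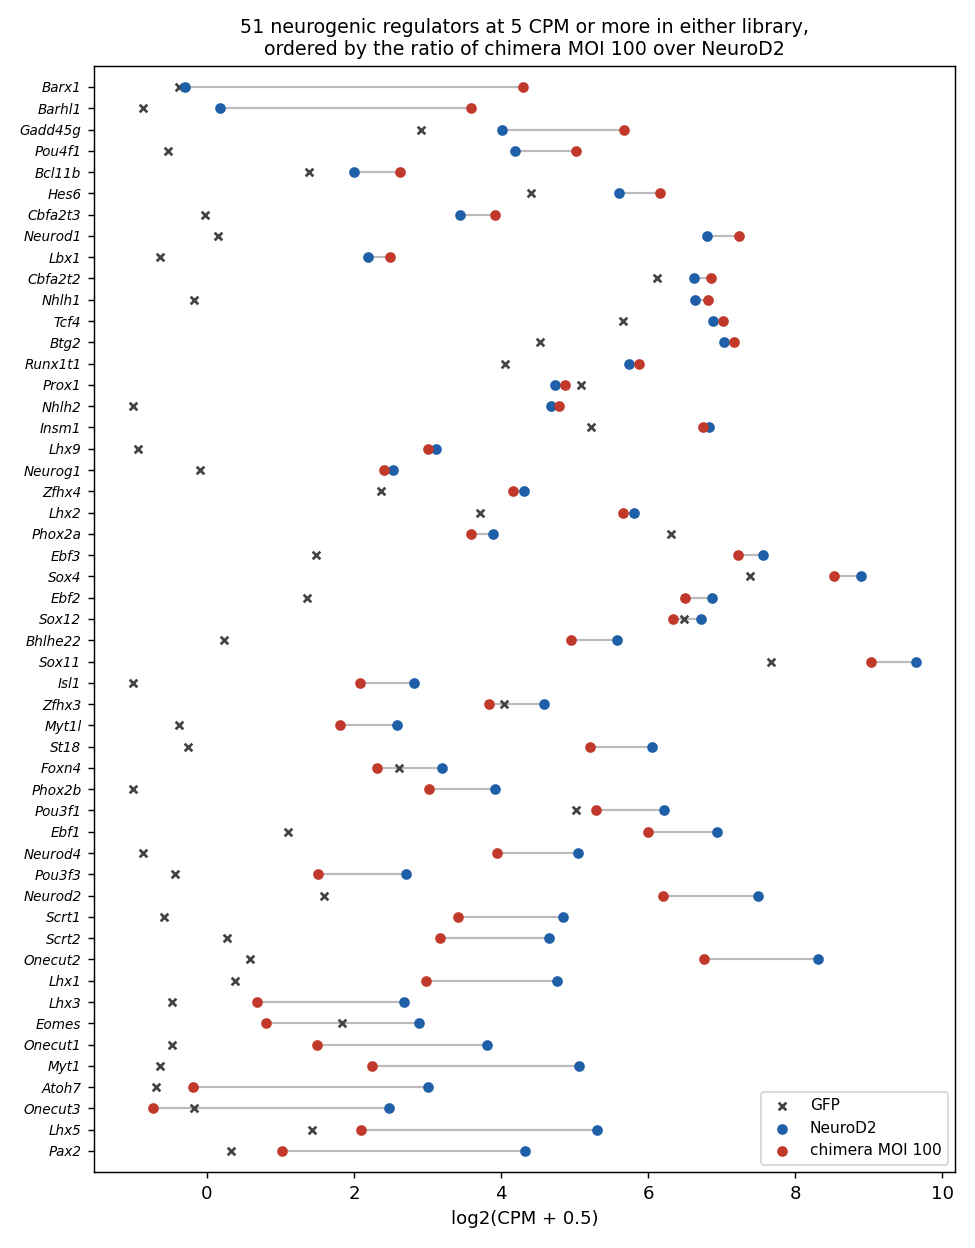
Levels as log2(CPM + 0.5) of the 51 neurogenic regulators at 5 CPM or more in either library, ordered by the ratio, for chimera MOI 100 (red), NeuroD2 (blue) and GFP (cross), 1 library each. Neurod1, Nhlh1 and Nhlh2 have red and blue points close together and far above GFP, while at the bottom Pax2, Lhx5, Onecut3, Atoh7 and Myt1 have red points well below blue.

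Progenitor genes of the neural tube went both ways. Of 48 measured progenitor and Notch genes 4 (8.33%) were called lower and 0 higher, with a median log2 ratio of -0.29, 19 members above 0 and 29 below. Nkx6-1, a homeodomain factor of ventral spinal progenitors, stood at 4.72 CPM in GFP, 2.42 in MyoD, 4.71 in the chimera with no MOI label, 4.03 in the chimera at MOI 100, 18.5 in WC, 23.7 in WCS, 22.0 in WCS at MOI 100 and 144 in NeuroD2. Both chimera libraries were at the GFP level, the 3 mutant libraries were in between and NeuroD2 was highest. The gene was 35.8-fold lower in the chimera (29.8 to 43.5). Foxa2, a floor plate and endoderm factor, belongs to the endoderm and mesoderm list. It was near the GFP level of 0.292 CPM in the chimera, at 0.312 CPM against 12.02 in NeuroD2. Unlike Nkx6-1, it stayed at 0.721 CPM or less in the 3 mutant libraries. Dbx1, a progenitor factor of the intermediate neural tube, stood at 6.21 against 39.3 CPM and Olig1 at 0.694 against 5.69 CPM. Olig2, its relative, was 2.54-fold lower at 19.2 against 48.9 CPM and not called. Irx3 and Irx5, homeodomain factors of neural tube progenitors, were higher in the chimera, at 134 against 69.2 CPM and 49.9 against 22.04 CPM.

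Notch ligands and targets differed by gene. Dner, a Notch ligand of neurons, stood at 14.6 against 147 CPM (10.03-fold lower, 9.07 to 11.1) and at 115 CPM in WCS at MOI 100. Dll1, the proneural Notch ligand, went the other way, at 284 against 131 CPM (2.17-fold higher, 2.09 to 2.26), and Dll4 was lower at 16.2 against 45.3 CPM. Of the Notch targets Hes5 stood at 23.7 against 46.1 CPM and Hey1 at 77.0 against 40.2 CPM. Nes, the progenitor filament nestin, which muscle precursors also make, was 3.17-fold higher in the chimera (3.05 to 3.29) and reached 474 CPM in MyoD. Sox2, shared by progenitors and pluripotent cells, stood at 108 against 131 CPM.

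The 85 lower genes were also read in libraries outside the pair. In WC over GFP 14 of the 85 (16.5%, exact interval 9.31% to 26.1%) were called higher, against 2.57% of all measured genes, which is 3.51% of the 399 genes called there, and 1 was called lower, against 0.605%. In MyoD over GFP 6 of the 85 (7.06%) were called lower, against 0.92% of all genes. The 2 called higher there (2.35%) were near the share of all genes, 2.75%. At 5 CPM or more stood 49 of the 85 genes in WC, 48 in WCS and 53 in WCS at MOI 100. The counts were 33 in GFP, 23 in MyoD and 31 in the chimera with no MOI label. The share of all measured genes at that level was not computed for each library. WC, WCS, GFP and MyoD also lie in the Rn7s6 group opposite to the chimera and WCS at MOI 100. These counts are therefore a description only.

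E-proteins and their inhibitors were next. Tcf3, Tcf4 and Tcf12, which encode the E-protein partners of both factors, lay within 1.2-fold, at 197 against 234, 129 against 117 and 213 against 190 CPM. All 4 Id genes, whose products bind E-proteins and block bHLH dimers, were lower in the chimera. Id2 was the 1 called gene of the 16 in the list, at 24.95 against 113 CPM (4.53-fold lower, 4.17 to 4.92), with 15.01 CPM in GFP. Id1, Id3 and Id4 were 2.31-fold, 2.80-fold and 2.17-fold lower. Pbx and Meis genes, encoding homeodomain cofactors of MyoD, lay within 1.7-fold.

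Pluripotency genes were lower in the chimera at MOI 100 than in NeuroD2. Of 34 measured members 27 lay below 0, with a median log2 ratio of -0.59, and 1 was called. Nanog stood at 135 CPM in GFP, 28.8 in MyoD, 48.9 in the chimera with no MOI label, 5.07 in the chimera at MOI 100, 66.6 in WC, 54.6 in WCS, 5.67 in WCS at MOI 100 and 22.3 in NeuroD2. The 2 libraries labelled MOI 100 were the lowest. Pou5f1, which encodes Oct4, was 2.81-fold lower in the chimera (2.62 to 3.01), at 38.9 against 109 CPM, and was lowest in the other library labelled MOI 100, at 29.1 CPM. With the NeuroD2 dose not given, dose and construct cannot be told apart here.

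Cell cycle genes lay close together, and 1 regulator of arrest was higher in the chimera. Of 46 measured cell cycle genes 45 lay within 2-fold and 0 were called, with a median log2 ratio of -0.02. Ccnd3, a D-type cyclin of differentiating muscle, was the member outside 2-fold, at 406 against 171 CPM, with 319 CPM in GFP. Cdkn1a, the CDK inhibitor p21, stood at 92.4 against 13.5 CPM (6.87-fold higher, 6.17 to 7.67), with 187 CPM in MyoD and 8.51 in GFP. Cdkn1a was the 1 called gene among 13 CDK inhibitor and retinoblastoma family genes. Cdkn1b, encoding p27, stood at 236 against 258 CPM and Rb1 at 58.5 against 49.5 CPM.

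Igf2, its binding protein and a neighbouring imprinted RNA were higher in the chimera. Igf2, an imprinted growth factor, stood at 184 CPM in GFP, 3540 in MyoD, 1250 in the chimera with no MOI label, 1689 in the chimera at MOI 100, 237 in NeuroD2 and 54.8 to 95.1 in the 3 mutant libraries. The MyoD and chimera libraries were thus high and the other 5 low. H19, the imprinted RNA next to it, stood at 533 against 176 CPM and Igfbp5, a binding protein of the growth factor, at 4132 against 1131 CPM. Reads of Igf2 and its antisense gene Igf2os, which stood at 48.2 against 8.18 CPM, cannot be separated without a known strand setting.

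The lists of other cell types differed in their summed levels. The fibroblast and matrix list summed to 7885 CPM in the chimera and 2965 in NeuroD2, of which Igfbp5 alone gave 4132 and 1131. Of its 28 measured genes 2 (7.14%) were called higher and 1 (3.57%) lower, against 1.17% and 0.547% of all measured genes. The higher ones were Igf2 and Col6a1, a collagen VI chain, at 25.2 against 2.62 CPM. The lower one was Postn, periostin, at 0.486 against 19.9 CPM. Pdgfra, a receptor of mesenchymal cells, stood at 20.0 against 7.69 CPM. Of 17 measured endoderm and mesoderm genes 0 were called higher and 3 (17.6%) lower, with Foxa2 and Eomes among them. The median log2 ratio of this list was -1.33, the lowest of the 15 lists, with 13 of the 17 below 0. Its summed level was 68.3 against 209 CPM. The endoderm genes Hnf4a and Apoa1 had 0 counts in both libraries. Of 21 glial and neural crest genes 1 was called higher, Erbb3, a neuregulin receptor, and 1 lower, Olig1. Erbb3 stood at 16.2 against 1.05 CPM, both below its 19.02 CPM in GFP, and at 134 CPM in MyoD. Of 27 interferon and stress genes 1 (3.70%) was called higher, Egr1, an immediate early gene, at 58.6 against 5.83 CPM. That list summed to 2517 against 2000 CPM, and the glial and neural crest list to 432 against 464 CPM. The interferon-induced Ifit3 and Mx1 had 0 counts in both. The part of other cell types in the results above was not tested.

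The chimera library with no MOI label was set beside the same NeuroD2 library, and the 2 comparisons share that library. Without the MOI label 101 genes (0.65%) were called higher and 257 (1.65%) lower, against 182 and 85 at MOI 100. For the neuronal cytoskeleton list the median log2 ratio was -1.41 without the MOI label and -0.37 at MOI 100, and for the synapse list -1.41 and -0.29. For neurogenic regulators it was -1.06 and -0.38. For the progenitor and Notch list it was -0.22 and -0.29, and for the skeletal muscle structure list 1.85 and 2.30. At MOI 100 the medians of the first 3 lists were thus nearer to the NeuroD2 level than without the label, and that of the muscle list was farther from it. The progenitor medians differed little. The interval of that median at MOI 100, -0.77 to 0.10, was taken over the member genes. It does not cover spread between libraries. The median of the pluripotency list was 0.03 without the label and -0.59 at MOI 100, and that of the cell cycle list 0.55 and -0.02. Nkx6-1, a member of the progenitor list, stood at 4.71 and 4.03 CPM in the 2 chimera libraries.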

How the data were processed

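RNA was taken from transduced P19 cells with an RNeasy kit or Trizol, libraries were selected with oligo-dT and sequenced on an Illumina HiSeq, per the labels' protocols. The submitters' processing notes name CASAVA 1.8.2, TopHat2 2.0.8 and the mm9 build. For the counting tool, the annotation release and strandedness, the sources used here give nothing. The values deposited by the authors are whole-number read counts per gene, not normalized. Symbols were matched for 87.5% of the 37558 identifiers.

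Counts were scaled to CPM with TMM factors over the 8 libraries (edgeR 4.0.16, R 4.3.3). Genes that reached 1 CPM somewhere among the 8 were kept. Log2 ratios used a pseudocount of 0.5 CPM. With 1 library a side no test of expression could be made, so genes were called by size (4-fold, and 5 CPM in the higher library). Ratios of CPM carry exact conditional binomial intervals, and shares carry exact Clopper-Pearson intervals, both at 95% (scipy 1.17.1). A gene with 0 counts was set to a floor of 3 counts per library. The calculations were tested on simulated data.

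Named genes were 37 panel genes, the 15 highest and 15 lowest called genes when ranked by the end of the interval closest to a ratio of 1, and up to 6 members per list and direction by that end, leaving out predicted models. Members and lists were chosen with earlier results of these data known. Outside the rule, Chrng, Eya2, Tead4, Igf2os, Map2, Onecut1, Rn7s6, Tcf3, Hand1, Pln, Hnf4a, Apoa1, Ifit3 and Mx1, and the genes named under the other observations, were picked once their values had been seen. The alternatives tried were other scalings, pseudocounts, folds and no filter, with size factors from DESeq2 1.42.0. Some results are not reported here.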

Additional observations from a re-analysis of the deposited data

How the results depend on the processing

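With a pseudocount of 2 CPM 121 genes were higher and 39 lower, and the median log2 ratio of the skeletal muscle structure list was 1.44. With 0.1 CPM that median was 3.22. Requiring 8-fold gave 88 higher and 20 lower genes, and 2-fold gave 518 and 450. The counts therefore depend on the fold and the pseudocount chosen, and the sizes for muscle genes near 0 in NeuroD2 depend on the pseudocount. Under DESeq2 size factors, total counts, TMM over the 2 libraries or no filter on low values, both counts stayed within 1.5 times and the list medians moved by less than their spread. The scalings moved the median of all genes by at most 0.02 on the log2 scale. Of 206 named ratios 1 moved past its counting interval, Igfbp5, to 3.71 with TMM over the 2 libraries. No paired analysis was possible because each group has 1 library and the labels carry no replicate numbers, so leaving out a replicate and a DESeq2 count test could not be run either. The depth of both libraries sets a floor of 0.104 and 0.105 CPM for a gene with 0 counts.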

Other observations

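Of the 182 genes higher in the chimera at MOI 100 than in NeuroD2, 33 (18.1%) stood under 1 CPM in both MyoD and GFP. The share was 6.91% of all measured genes and 1.28% of the 11604 genes at 5 CPM or more in the chimera. It was larger, 29 of 85 (34.1%), among the lower genes, so the trait was not particular to the higher ones. The genes named here were chosen after their values were seen, and no test was made. Tbx18, a T-box factor of mesenchymal progenitors, stood at 18.3 against 0.105 CPM (174-fold, 59.3 to 847), at 5.91 CPM in the chimera with no MOI label and at 0.385 CPM or less in the 3 mutant libraries. Fbxo40, a muscle F-box protein, stood at 15.4 against 0.489 CPM (31.5-fold, 18.6 to 58.1) and at 8.25 CPM in the chimera with no MOI label. Both genes were thus above 5 CPM in the 2 chimera libraries alone among the 8.

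Evi2a, which encodes a membrane protein, stood at 23.5 CPM against 1 count in NeuroD2 (674-fold, 120 to 26642). Evi2, listed at the same place on the same strand, had 0 counts in NeuroD2. With that 0 set to the floor of 3 counts it was 222-fold higher (75.6 to 1079). The 2 gene models overlap, so their reads cannot be separated and they count as 1 observation. Pkd2l1, a channel of neurons that contact the cerebrospinal fluid, stood at 35.7 against 3.42 CPM (10.4-fold, 8.46 to 12.95), with 4.18 CPM in the chimera with no MOI label and 3.54 CPM in WCS at MOI 100.

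Rpl27-ps2, a ribosomal protein pseudogene, had 0.139 CPM in the chimera, against 10.1 in NeuroD2, and at 15.4 CPM in WCS. Reads of its near-identical parent gene could be assigned to it, so this value is uncertain.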
